A study of Rattus norvegicus with 2 samples.

Results

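Potassium channel genes, taken here as all genes whose symbol starts with Kcn, were compared between dorsal root ganglia (DRGs) of the tumor side and of the control side in rats carrying IP-B12 tumors in the tibia. The group comprised 126 of 31042 probe sets and 75 of the 14217 genes with a symbol of their own on the array. Each transcript is read by several short probes that are summed up as 1 signal, together called a probe set. Where a gene had several, the one brightest on average over both arrays stood for it. The animals were female Sprague-Dawley rats of 4 weeks. On day 14 after 100000 cells of the osteolytic rat pulmonary carcinoma line IP-B12 had been placed in the marrow of the right tibia, RNA was prepared from DRGs of the right (tumor) side and of the left (control) side. All ganglia thus came from rats that carried a tumor, a sham injection of the left tibia is not described for them, and the number of rats and the spinal levels behind each RNA are not given in the sources used here. The RNA of each side, 100 ng as starting amount, was hybridized to 1 array, so that no test of any difference was possible and each ratio describes these 2 arrays.

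Potassium channels let potassium leave the cell and thereby pull the membrane back towards rest. In SNs, the sensory neurons whose cell bodies lie in the DRG, voltage-gated (Kv) channels end the action potential and set how easily the next one starts, K2P channels carry the leak current of the resting membrane, and inward rectifiers (Kir) respond to G proteins, ATP or the potassium around glia. Other channels open on calcium or sodium entry, and auxiliary subunits bound to the pore change its gating or its transport to the membrane. Loss of Kv current in SNs is a known source of hyperexcitability after nerve injury.

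The deposited values are MAS 5.0 signal intensities on a linear scale, with a median of 68.8 on the control-side array and of 72.4 on the tumor-side array. The median log2 ratio (tumor side over control side) of all genes was 0.08, and positions are therefore given relative to it where a small difference is described. A gene met the signal rule if its mean log2 signal over both arrays reached the median of all probe sets, a geometric mean signal of 70.2. This applied to 39 of the 75 Kcn genes, 52.0%, against 66.9% of all genes. On both arrays the ganglia were recognisable by their neurons and glia. All 18 measured SN markers and all 10 measured markers of Schwann cells and satellite glia met the rule, with log2 ratios from -0.33 to 0.22 and from -0.05 to 0.26. Markers of other tissues differed more between the sides. Of 16 skeletal muscle markers 11 were lower on the tumor side by a fold of 2 or more and 1 was higher by as much. Signals of all 16 ran from 5.30 to 1583 on the control side and from 6.28 to 1742 on the tumor side. Of the 6 that met the rule, 4 were at least 2 times lower and none was higher by as much. Of 12 bone and cartilage markers 3 were at least 2 times higher and 1 was at least 2 times lower (signals from 7.49 to 7642 and from 11.8 to 7676). Of 7 granulocyte markers 2 were at least 2 times lower (from 2.60 to 572.5 and from 1.99 to 286.3). The 3 higher bone markers and the 2 lower granulocyte markers met the rule, and the lower bone marker did not. Over all genes at any signal, 4.31% were at least 2 times higher and 3.71% at least 2 times lower. Among genes that met the rule these shares were 0.0631% and 0.116%. The median log2 ratio of 4 erythroid markers was -0.43 (from 66.1 to 4126 and from 47.1 to 3207) and that of 11 macrophage markers 0.18 (from 23.2 to 313.2 and from 33.1 to 393.0). The part of such differences in the values below was not tested. In whole ganglia, fewer cells of a type and less RNA per cell cannot be told apart.

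None of the 39 Kcn genes that met the signal rule was 2 times higher or lower on the tumor side. Over all genes that met the rule these shares were 0.0631% and 0.116%, so that a count of 0 among 39 is near the background. At 1.5 times, 1 Kcn gene was higher (background 0.873%) and none was lower (background 0.484%). The log2 ratios of the 39 ran from -0.38 to 0.65 with a median of -0.02, against 0.08 for all genes that met the rule. Of the 39, 27 lay below the median of all genes and 12 above it, and 30 lay within 0.2 of it. Of the 9510 genes that met the rule, 4702 lay below. By ratio alone, 21 of the 39 were lower and 18 higher on the tumor side, against 2725 lower and 6785 higher of the 9510. Of other groups, 14 of 18 SN markers, 6 of 8 genes of voltage-gated sodium channels (Scn) and 6 of 7 of calcium channels (Cacn) that met the rule lay below the median of all genes too.

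**Figure D1:**
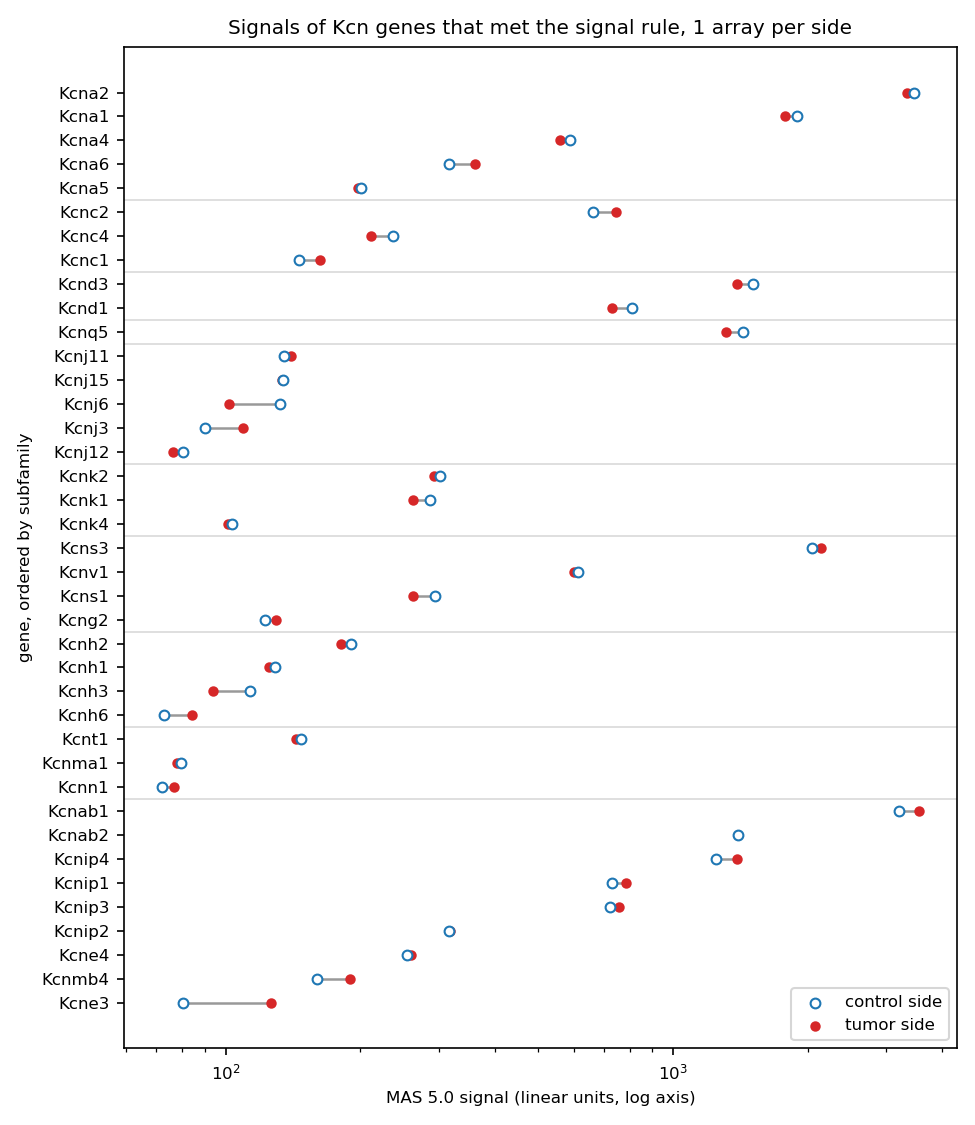
MAS 5.0 signal (horizontal log axis) of the 39 Kcn genes that met the signal rule, ordered by subfamily on the vertical axis. Open blue circles are the control-side array and red circles the tumor-side array, with 1 array per side and no error bars. The pair of symbols nearly coincides for most genes, and Kcne3, with 80.2 and 126.1, has the widest gap.

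The only estimate of spread in these data comes from genes with several probe sets. Such probe sets read the same RNAs on the same arrays. Their SD therefore holds no spread between rats, dissections, RNA preparations or hybridizations, and a gene past it is not thereby shown to differ. Within a fold of 2 of a gene's signal, the SD of the log2 ratios that probe sets of 1 gene gave was 0.09 around Kcna2 and 0.53 around Kcne3, because ratios scatter more at low signal. Measured against this SD, 5 Kcn genes lay farther below the median of all genes than 1 SD and 1 lay farther above it. Over all genes that met the rule, 7.48% lay so far below and 7.12% so far above. The 5 were Kcna1, Kcna2, Kcnd1, Kcnd3 and Kcnq5, all of them pore subunits of Kv channels, and the 1 was Kcne3, an auxiliary subunit. The threshold of 1 SD was chosen after the values were seen.

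Kcna genes encode the Kv1 pore subunits, which in myelinated axons sit beside the nodes and hold the membrane below threshold. Kcna2 had a signal of 3451 on the control-side array and of 3341 on the tumor-side array (log2 ratio -0.05). A dimmer probe set of Kcna2 had the same direction, at 67.2 and 59.2. Kcna1, the usual partner of Kcna2, had 1897 and 1780 (log2 ratio -0.09), and Kcna4, an A-type subunit of small SNs, had 588 and 559 (log2 ratio -0.07). Signals of the tumor-side array were thus 0.968, 0.938 and 0.952 times those of the control-side array for these 3 genes. Kcna5 had 200.8 and 198.0. Kcna6 was the only Kcna gene above the rule that was higher on the tumor side, with 316.2 and 360.3 (log2 ratio 0.19). Its other probe sets, both dim, went in opposite directions, at 4.37 and 17.0 and at 7.42 and 4.002. Kcna3, best known from lymphocytes and macrophages, had 4.84 and 38.6 on its only probe set. The control-side value did not exceed the highest signal of the trp probe sets on that array, 5.39. These control probe sets have no rat target, so no fold is given.

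Kcnd genes encode the Kv4 pores, which carry the rapidly inactivating A-type current of SN cell bodies. Kcnd3 had 1510 and 1392 (log2 ratio -0.12), with 238.3 and 218.4 on a further probe set (-0.13), while a dim one had 33.8 and 44.1. Kcnd1 had 809.3 and 732.1 (log2 ratio -0.14). Both genes were lower on the tumor side on every probe set that met the rule. Kcnd2 missed the rule, with 62.4 and 60.0 and, on its other probe set, 55.2 and 29.6.

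Kcnip genes encode KChIPs, cytoplasmic calcium-binding proteins that carry Kv4 pores to the membrane. All 4 met the rule, and none had a log2 ratio below 0. Of all 9510 genes that met the rule, 6785 had a log2 ratio above 0. Kcnip4 had 1249 and 1392 on its brightest probe set (log2 ratio 0.16) and 337.9 and 457.6 on the other (0.44). Kcnip1 had 729.3 and 785.6 (0.11), and 236.2 and 278.7 (0.24) on a second probe set. A dim probe set of Kcnip1 went the other way, with 9.56 and 1.02. Kcnip3 had 724.9 and 756.2 (0.06) and Kcnip2 315.4 and 317.1 (0.01). The last of these lay just below the median of all genes, as did Kcnip3, so that centring on that median turns the sign of both. Dpp6 and Dpp10, membrane proteins that complete the Kv4 complex, had 1207 and 1268 and 1441 and 1516 (0.07 each), near the median of all genes. On their brightest probe sets, pores and auxiliary proteins of the Kv4 complex stood on opposite sides of a log2 ratio of 0, by differences far under a fold of 1.5. Dpp6 and Dpp10 lay just below the median of all genes, so after centring only Kcnip1 and Kcnip4 stayed opposite the pores. Their distances above that median, 0.03 and 0.08, were within the SD between probe sets at their signals, 0.15 and 0.11.

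**Figure D2:**
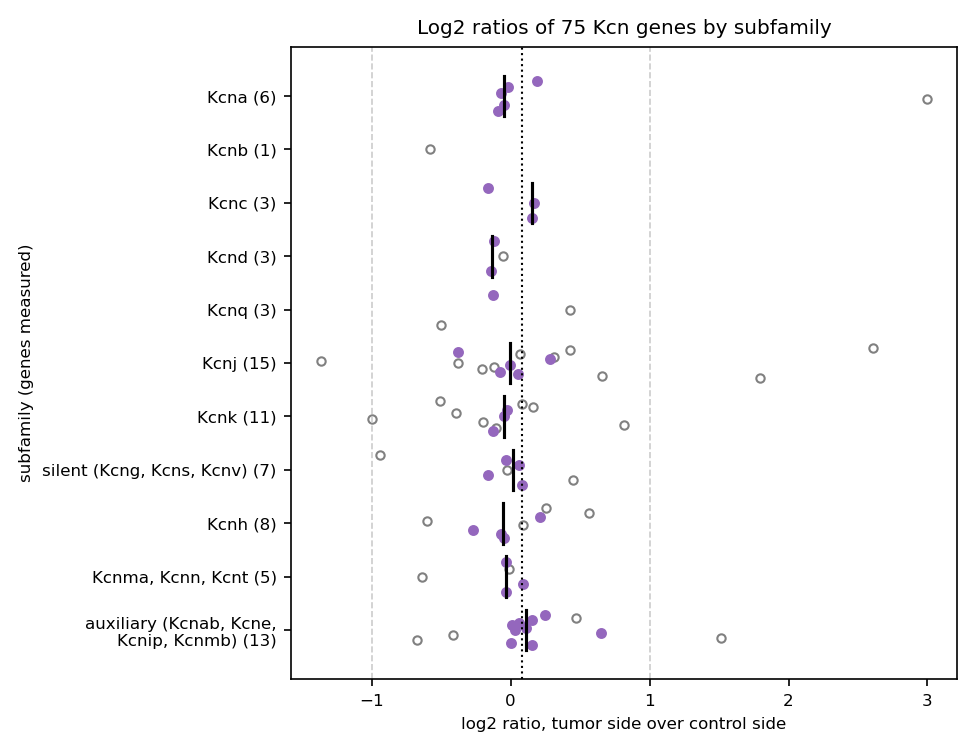
Log2 of the tumor-side signal divided by the control-side signal, 1 point for each of the 75 Kcn genes, by subfamily with the number of genes measured in brackets. Filled points met the signal rule and open points did not, black bars are medians of filled points where there are at least 2, a dotted line marks 0.08, the all-gene median, and dashed lines mark a fold of 2. Filled points lie close to the dotted line, and Kcnd genes have the lowest median (-0.13).

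The other auxiliary subunits also had log2 ratios of 0.00 or more where they met the rule. Those of Kcnab2 and Kcne4 turn below 0 after centring. A log2 ratio above 0 was found in 6785 of all 9510 genes that met the rule, so the sign alone does not set auxiliary genes apart. Kcnab1, a cytoplasmic beta subunit that speeds the inactivation of Kv1 channels, had 3198 and 3552 (log2 ratio 0.15) and, on a second probe set, 193.6 and 229.8 (0.25). Kcnab2, another beta subunit of Kv1 channels, had 1399.7 and 1400.1, with 134.8 and 136.6 on a second probe set. Kcnmb4, the neuronal beta subunit of the large-conductance calcium-activated channel, had 160.2 and 189.9 (0.25). Kcne3, a small membrane-spanning subunit that modifies Kv7 and other channels, had 80.2 and 126.1, so that the tumor side had 1.57 times the signal (log2 ratio 0.65). It is the 1 gene of the family past 1.5 times. Its second probe set was dim and gave 2.77 and 2.92. Kcne4 had 254.5 and 260.3. In all, 9 of 13 auxiliary genes met the rule, with a median log2 ratio of 0.11 and a lowest value of 0.00, against -0.04 for the 30 pore-forming and silent subunits that did. Of these 30, 23 lay below the median of all genes, and of the 9 auxiliary genes, 4. Of the 4 auxiliary genes under the rule, Kcnab3 had 40.1 and 25.2, Kcne2 5.44 and 4.07, Kcnmb1 2.52 and 3.50 and Kcne1 1.29 and 3.67. The difference between auxiliary and pore genes was read off after the values were seen and has no test.

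The Kv7 and Kv3 groups had medians of opposite sign, -0.13 for the 1 Kcnq gene and 0.16 for the 3 Kcnc genes that met the rule. However, that of Kcnc was -0.16 without probe sets ending in _s_at, _x_at or _a_at, where a dimmer probe set stood for Kcnc2. With the mean over probe sets it was -0.03. Kcnq genes encode the Kv7 subunits of the M-current, a slow brake on repetitive firing. Kcnq5 had 1434 and 1315 (log2 ratio -0.13) on its bright probe set, and 50.7 and 25.7 as well as 12.7 and 21.1 on dim ones. Kcnq3 had 50.2 and 67.4 and Kcnq1, best known from heart and epithelia, 20.8 and 14.7, both under the rule. Kcnc genes encode the Kv3 pores of fast-spiking neurons. Kcnc1 had 146.1 and 162.8 (0.16) and Kcnc4 236.3 and 211.2 (-0.16), with 41.8 and 32.5 on a second probe set of Kcnc4. Kcnc2 had 663.8 and 747.2 (0.17) on its brightest probe set but 87.4 and 63.4 (-0.46) on the next. It was the 1 Kcn gene with probe sets of opposite direction that both met the rule, so its direction is unsettled. Kcnb2, a Kv2 delayed rectifier, had 70.0 and 46.7 and missed the rule.

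Silent Kv subunits form no channel alone and alter Kv2 channels when they join them. Kcns3 had 2048 and 2139 (log2 ratio 0.06). Kcnv1 had 614.7 and 600.7 (-0.03). Kcns1, in which sequence variants have been linked to pain, had 293.4 and 261.9 (-0.16), and Kcng2 had 122.5 and 129.9 (0.08). Dim probe sets of Kcng2 gave log2 ratios of 2.39 and -2.39, at signals between 2.69 and 21.9. The other 3 missed the rule, Kcng3 with 19.2 and 26.3, Kcnv2 with 27.7 and 14.4 and Kcns2 with 3.30 and 3.25.

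Kcnh genes encode the EAG, ERG and ELK channels. Kcnh2, the ERG channel best known from cardiac repolarization, had 190.4 and 181.3 (log2 ratio -0.07). Kcnh1 had 129.2 and 125.1 (-0.05), Kcnh3 113.4 and 93.9 (-0.27) and Kcnh6 72.8 and 84.3 (0.21). Of the other 4, Kcnh5, Kcnh7 and Kcnh8 had signals of at most 27.3, and Kcnh4, with 1.45 and 1.54, lay below the trp control probe sets on both arrays. The log2 ratios of the 4 that met the rule thus ran from -0.27 to 0.21, and those of the dim ones from -0.60 to 0.56.

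Kcnj genes encode the Kir channels. Of 15 Kcnj genes 5 met the rule, and no Kcnj signal exceeded 140.0. Kcnj3 and Kcnj6 encode pore subunits of the G protein-gated channels through which opioid and other receptors quiet neurons. Kcnj3 was higher on the tumor side on all 3 of its probe sets, with 90.1 and 109.5, 46.4 and 54.6 and 33.7 and 40.5 (log2 ratios from 0.23 to 0.28). Kcnj6 was lower on all 4 of its probe sets, with 132.4 and 102.0, 51.5 and 19.4, 27.1 and 18.9 and 22.3 and 10.3 (from -0.38 to -1.41). The probe sets of each of these partner subunits thus shared a direction, and the directions of both genes were opposite. The SD between probe sets of a gene at these signals was 0.53 and 0.48, so each brightest log2 ratio, 0.28 and -0.38, lay within 1 SD of the median of all genes. The further subunits Kcnj5, with 63.0 and 66.1, and Kcnj9, with 2.76 and 16.8, missed the rule.

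Kcnj11, the pore of the ATP-sensitive channel, had 135.1 and 140.0 by a probe set whose probes may bind other transcripts, and 24.7 and 39.6 by its dimmest. Its sulfonylurea receptor partner Abcc8 had 33.7 and 33.9, and Abcc9, the partner in vessels and muscle, 85.0 and 80.3. Kcnj15 had 134.4 and 133.8 and Kcnj12 80.5 and 76.3. Kcnj10, the potassium-buffering channel of satellite glia, had 13.4 and 21.1 on its 1 probe set and missed the rule. Kcnj16, a partner of Kcnj10, was lower on both of its probe sets, with 36.0 and 27.7 and 32.3 and 23.9. Kcnj2 had 25.1 and 9.76. It was the 1 Kcn gene more than 2 times apart with both signals above the trp control probe sets, and the SD between probe sets at its signal was 1.08 on the log2 scale.

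Among K2P channels, the leak channels, differences were small where the signal rule was met. Of 11 Kcnk genes 3 met the rule. Kcnk2, a mechano- and heat-sensitive leak channel, had 301.7 and 292.3 (log2 ratio -0.05). Kcnk1 had 286.7 and 262.6 (-0.13) and Kcnk4, related to Kcnk2, 103.3 and 101.2 (-0.03). All 3 were lower on the tumor side and below the median of all genes. Among the 8 others, Kcnk12 had 29.5 and 51.9, Kcnk10 35.6 and 33.1 and Kcnk3, an acid-sensitive leak channel, 38.1 and 29.0. The probe sets of Kcnk3 spanned log2 ratios from -1.56 to 3.73, the widest range of the family.

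Of 5 genes of channels opened by intracellular ions, 3 met the rule. Kcnt1, opened by sodium, was lower on all 3 of its probe sets, with 147.2 and 143.8, 64.3 and 57.4 and 67.3 and 51.9. Kcnma1, the large-conductance calcium-activated pore, had 79.6 and 77.8 (log2 ratio -0.03), and Kcnn1, a small-conductance calcium-activated pore, 72.0 and 76.6 (0.09). Kcnn4, found mainly in blood cells, had 43.7 and 43.4 and Kcnn3 12.1 and 7.76. Kcnn1 was the dimmest member to meet the signal rule and Kcnj5 the brightest to miss it.

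**Figure D3:**
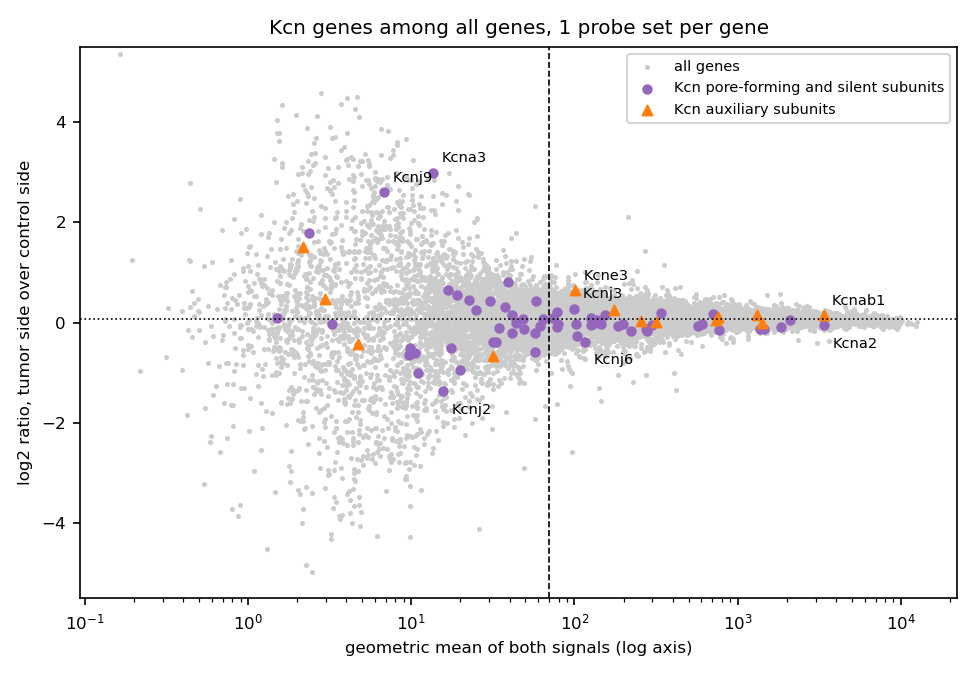
Vertical axis, log2 of the tumor-side signal divided by the control-side signal. Horizontal log axis, geometric mean signal of the pair of arrays, with 1 point per gene. Grey points are all 14217 genes, purple circles Kcn pore-forming and silent subunits and orange triangles Kcn auxiliary subunits, the dashed line is the signal rule (70.2) and a dotted line marks 0.08, the all-gene median. Ratios far from 0, such as those of Kcna3, Kcnj9 and Kcnj2, occur to the left of the dashed line, where all genes scatter widely.

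The 36 Kcn genes under the signal rule scattered with the other dim genes. Over all 75, the tumor-side signal was 2 times or more that of the control side in 4 and 0.5 times or less in 1, against 4.31% and 3.71% of all 14217 genes. The 4 were Kcna3, Kcnj9, Kcnj1 and Kcne1, and on the control side none of them exceeded the brightest trp probe set. Kcnj1, the secretory channel of the kidney tubule, had 1.26 and 4.38. In the class below the rule, the central 95% of all genes ran from -2.38 to 2.61, and 1 of the 36 Kcn genes lay outside it. Between the rule and percentile 75 of signal the range was -0.43 to 0.54, and 1 of 23 Kcn genes lay outside. Above percentile 75 it was -0.16 to 0.33, and none of 16 did. The Kcn medians of these 3 classes were -0.02, -0.03 and 0.00, against 0.06, 0.08 and 0.08 for all genes.

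Probe sets of the same gene gave the direction only in part. Of 31 Kcn genes with 2 to 6 probe sets, 18 had probe sets on both sides of a log2 ratio of 0. This count includes dim probe sets, and the share over all genes was not determined. Of the 7 Kcn genes with at least 2 probe sets that met the rule, 1 had such probe sets on both sides. In 7 genes all probe sets were higher on the tumor side, namely Kcnab1, Kcne3, Kcnip2, Kcnip4, Kcnj11, Kcnj3 and Kcnk6. In 6 all were lower, namely Kcna2, Kcnc4, Kcnd2, Kcnj16, Kcnj6 and Kcnt1. Kcnab1, Kcne3, Kcnip2 and Kcnip4 encode auxiliary subunits. Kcnj11, Kcnj3 and Kcnk6 encode pores, as do all 6 genes on the lower side. The counts of 7 and 6 include dim probe sets too, and their shares over all genes were not determined. Of all 14217 genes, 9313 had a log2 ratio above 0, so these counts do not set auxiliary genes apart from pores. The second probe set of Kcne3 did not exceed the brightest trp probe set on either array. Both probe sets of Kcnip2 that met the rule lay below the median of all genes. Where at least 2 probe sets of a gene met the rule, the SD between them was 0.19 for 7 Kcn genes and 0.17 for 2122 genes in all. Kcnd3, Kcnip2 and Kcnab2 had differences of 0.01, 0.01 and 0.02 between such probe sets, and Kcnc2 had 0.63.

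**Figure D4:**
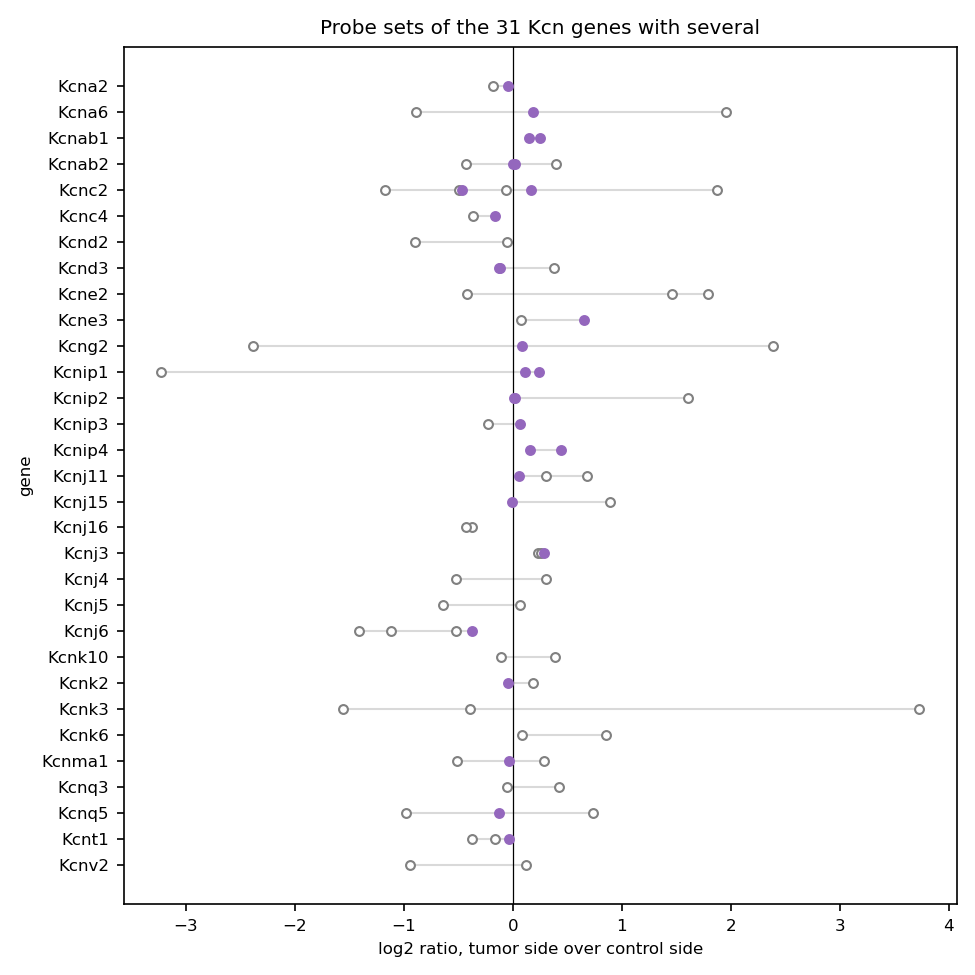
Log2 of the tumor-side signal divided by the control-side signal (horizontal axis) for each probe set of the 31 Kcn genes with several, 1 row per gene and 1 point per probe set, joined by a grey line. Filled points met the signal rule and open points did not. Filled points of a gene lie close together except for Kcnc2, and the widest lines, those of Kcnk3 and Kcng2, are spanned by open points.

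Of 41 potassium channel genes listed for their known expression in SNs, 34 were measured and 27 of these met the rule. None of the 34 differed by a fold of 2, and the 27 had a median log2 ratio of -0.03, with 18 below the median of all genes. The other 7 were not analysed here. Of 8 channels known mainly from glia, vessels or blood cells, 1, Kcne4, met the rule, and none of the other 7 had a signal above 50.1. Macrophage markers, whose median is given above, had signals of up to 393.0 beside them. Of the 39 members that met the rule, 27 thus were on the list for SNs and 1 on that for other cells.

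Proteins that anchor, regulate or complete potassium channels but carry other symbols differed as little. Of 28 such genes 23 were measured and 15 met the rule. At any signal no partner was past a fold of 2, the median log2 ratio of the 15 was 0.04 and 11 lay below the median of all genes. Cntnap2, which holds Kv1 channels beside the nodes, had 1262 and 1292, and Ank3, the ankyrin that binds M-channels at the start of the axon, 1613 and 1709. Adam22 and Lgi1, partners in the Kv1 complex, had 3185 and 3458 and 568.4 and 651.2. Among the 15, the scaffold Dlg4 was the farthest from 0, with 146.3 and 204.0 (log2 ratio 0.48). Sptbn4, a spectrin of the nodes, had 170.7 and 139.9 (-0.29). Amigo1, which accompanies Kv2 channels, had 555.8 and 580.5. The 8 Scn genes that met the rule had a median of -0.03 and the 7 Cacn genes one of 0.06, beside -0.02 for the 39 Kcn genes. Of 3 measured Hcn genes, which encode the hyperpolarization-activated channels, the 1 that met the rule had 104.4 and 183.2 (log2 ratio 0.81). The other 2 were also higher on the tumor side, but 1 of them did not exceed the brightest trp probe set on at least 1 array. Of all 14217 genes, 9313 had a log2 ratio above 0. Whether these families differ was not tested.

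Promoter sequence was not used in the choice by symbol and is described here without a test. In RefSeq windows of the assembly GRCr8, from 250 bases before to 50 after a gene's start, 52 of the 75 genes had a sequence. The median GC content of these was 63.8%, against 52.3% for all 27457 genes with a window. A GC box, searched as GGGCGG on both strands, was found in 59.6% of Kcn genes and 36.0% of all, and a TATA box, searched as TATAAA on both strands, in 3.85% and 15.3%. The 27457 genes are not limited to those on the array, and a motif counted if any annotated start of a gene held it. Among members that met the signal rule, 20 of 28 held a GC box and none a TATA box, and among those below it 11 of 24 and 2 of 24 did. The same split was not made for all genes. The full cAMP response element TGACGTCA was in none of the 52 and in 2% of all genes, and its half-site TGACG, which it contains, in 25.0% and 23.0%. The motifs were chosen after the signals were seen, and a match is a description of letters only. The 120 bases before the start are shown for Kcna2 and Kcns3 as examples with GC boxes and for Kcnj1 as one with a TATA box, all chosen for holding the motif. Capitals mark GC boxes in the former and the TATA box in the latter, and strands are those of the genes.
Kcna2, chr2:197393410-197393529, plus strand: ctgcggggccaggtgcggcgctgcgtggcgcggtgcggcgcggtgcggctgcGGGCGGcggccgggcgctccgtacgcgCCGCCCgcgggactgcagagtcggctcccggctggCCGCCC
Kcns3, chr6:39583395-39583514, minus strand: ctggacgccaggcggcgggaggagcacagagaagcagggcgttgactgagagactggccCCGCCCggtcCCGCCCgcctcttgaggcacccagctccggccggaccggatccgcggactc
Kcnj1, chr8:39037872-39037991, plus strand: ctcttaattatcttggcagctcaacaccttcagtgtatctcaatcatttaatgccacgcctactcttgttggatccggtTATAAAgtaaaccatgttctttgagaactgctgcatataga
Kcna2 held 3 GC boxes in these bases and Kcns3 held 2, while another annotated start of Kcns3 held no GC box in its 120 bases and another of Kcnj1 no TATA box. The motif did not follow the signal rule throughout, as the window of Kcna3, under the rule, held a GC box and those of Kcna4 and Kcna6, which met it, held none.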

How the data were processed

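DRG RNA of each side was hybridized to 1 GeneChip Rat Genome 230 2.0 array. The authors derived signal intensity values with MAS 5.0 at default settings, which the submitters' notes call MAS5, and values were deposited for 31099 probe sets, 57 of them controls. The sources used here do not state how the arrays were scaled to each other, and the tumor-side array was 5.98% brighter in its 2% trimmed mean. The deposited intensity values hold no detection calls.

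Log2 ratios were computed without a pseudocount. Symbols came from the platform annotation, and all 75 Kcn gene identifiers matched RefSeq (GRCr8) with no symbol to update. RefSeq lists 95 protein-coding Kcn genes, of which 20 were not analysed here. The signal of a probe set also depends on its probes, so signals of different genes were not ranked as expression levels. The signal rule used the mean of both arrays because a rule on the higher signal favours genes that differ. Members, lists and the earlier results of these data were known when the choices were made. Named genes were the 10 highest and 10 lowest log2 ratios that met the rule, the 3 brightest of each subfamily, listed channels of SNs, members beyond a fold of 2 and members with opposed probe sets that both met the rule, and other genes were named after their values were seen. Skeletal muscle, bone and cartilage, granulocyte, erythroid, macrophage, SN and glia markers were summarised beside the results. With 1 array per side there was no test, and the number of arrays limits the precision. Calls use a fold of 2. The spread between probe sets of a gene, pooled over genes within a fold of 2 in signal, served as yardstick. It holds no spread between animals, RNA preparations or arrays. The procedure was checked on simulated data with known folds. That check concerns the computation and gives no measure of the spread between animals or arrays. Comparison of pore and voltage sensor sequences of the proteins was planned and was not run, as no protein sequences were used here. Alternatives were quantile normalization, centring, loess (span 0.3) and a pseudocount of 11.1 (percentile 20). In addition, 4 other signal filters were used (none, percentile 75, and higher or both signals at their array's median). Further alternatives were omission of probe sets ending in _s_at, _x_at or _a_at, averaging over a gene's probe sets, and folds of 1.5 and 3. Tables were handled in pandas 2.3.3 and numpy 2.4.6 under Python 3.11.15, loess came from statsmodels 0.14.6 and figures from matplotlib 3.10.9.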

Additional observations from a re-analysis of the deposited data

How the results depend on the processing

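Over the alternatives, 137 of 140 medians, shares and counts stayed within their yardstick. For counts this was 1.5 times, and for medians the SD between probe sets of a gene. That SD is wide for a median. The median of Kcnc counted as within its SD of 0.34 when it went from 0.16 to -0.16 without probe sets ending in _s_at, _x_at or _a_at. That of Kcnj (SD 0.48) did so from -0.01 to 0.26 with the mean over probe sets. For the share below the median of all genes the yardstick was the 95% binomial interval (Wilson). It treats genes of the same 2 arrays as independent and is wide for 39 genes. Staying within these yardsticks therefore says little about stability. The median log2 ratio of the Kcn genes ran from -0.10 (loess and centring) to 0.00 (percentile 75 filter). These settings have unlike zero points. The median of all genes was -0.0008 with loess, -0.0006 with centring and 0.08 with that filter, so the range includes the shift of all genes. The share of Kcn genes below the median of all genes ran from 62.7% to 70.3%. Without a signal filter 4 genes were at least 2 times higher and 1 was at least 2 times lower, against 0 each with it, and with a fold of 1.5 the count of higher genes was 1. Filters and folds change counts by construction. Of 287 values of named genes 277 stayed within the SD and 10 moved by more. Kcnc2 turned from 0.17 to -0.46 without probe sets ending in _s_at, _x_at or _a_at. In that setting Kcnj6 moved from -0.38 to -1.41 and Kcnj11 from 0.05 to 0.68, each on a probe set under the rule. The mean over probe sets turned Kcnc2 to -0.03, Kcnd3 from -0.12 to 0.05, Kcnip1 from 0.11 to -0.96 and Kcnk3 from -0.39 to 0.59. It also moved Kcnip4 from 0.16 to 0.30. The pseudocount moved Kcna3 and Kcnj9, both under the rule. Quantile normalization, centring, loess and the pseudocount left all 39 genes on their side of the median of all genes. The mean over probe sets, which includes dim ones, moved 6 across it (Kcnc2, Kcng2, Kcnip1, Kcnip2, Kcnj11 and Kcnj15). Omission of probe sets ending in _s_at, _x_at or _a_at left 37 genes above the rule, without Kcnj6 and Kcnj11, and moved Kcnc2 across the median. Of the 39, 6 had a log2 ratio between 0 and 0.08, so that centring turns their sign. Kcnb had no member that met the rule and gives no median. No paired analysis was possible because a side had only 1 array. Low signal is a limit beside the 1 array per side, as 36 of 75 genes were under the rule and 8 did not exceed the brightest trp probe set on at least 1 array.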

Other observations

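Several Kcn genes lie next to each other on GRCr8, with no other protein-coding gene between them, and their values are given here side by side, not as levels to be ranked. On chromosome 4, Kcna5, Kcna1 and Kcna6 follow each other, with control-side signals of 200.8, 1897 and 316.2 and log2 ratios of -0.02, -0.09 and 0.19. On chromosome 2, Kcna3, with 4.84 on the control side, lies beside Kcna2, with 3451. On chromosome 11, Kcnj6 and Kcnj15 had 132.4 and 134.4 and log2 ratios of -0.38 and -0.01. On chromosome 10, Kcnj16 and Kcnj2 had 36.0 and 25.1 and were both lower on the tumor side, with log2 ratios of -0.38 and -1.36 at signals under the rule, and on chromosome 13 Kcnj9 and Kcnj10, dimmer still, were both higher. These pairs were looked up after the values were seen and are a description without a test.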
